A study of Homo sapiens with 8 samples.

Results

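In LY2 cells, 907 genomic sites held a stronger estrogen receptor (ER) peak after CDK12 knockdown and no ER peak in the control. They are called siCDK12-only stronger sites here. They come from chromatin immunoprecipitation and sequencing (ChIP-seq) of ER in 4 libraries. Overlaps of 1 bp or more joined the peaks under a q-value of 0.05, taken from chromosomes 1 to 22, X and Y, into 25365 sites. A site was kept where neither siCtrl library had such a peak and at least 1 siCDK12 peak had a -log10 q-value of 3 or more. The 907 sites are 3.58% of the 25365. The same rule turned around kept 2512 siCtrl-only stronger sites, 9.9% of the total. The sites were thus chosen by the presence and q-value of their peaks, so peak presence, q-value, fold and pileup are described below with no test. Sequence and position were not used by the rule, and the tests are on these. The rule can still bear on them, since each class leaves out sites with a peak in the other condition.

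LY2 is an endocrine-resistant ER+ breast cancer cell line of the MCF-7 lineage. All cells were serum-depleted for 24 hours in medium without 4-OHT, transfected with siCtrl or siCDK12 for 48 hours and given 1 µmol/L β-estradiol for 1 hour, so the control cells carry the same estradiol treatment. ER peak lists of siCtrl replicates 2 and 3 and siCDK12 replicates 3 and 4 were analysed, and the 4 input libraries were not analysed here. No source says whether the libraries of a condition came from separate cultures, and CDK12 itself was not measured in these libraries.

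The libraries differed in the length of their lists. The q-value limit left 4819 and 5224 peaks in siCDK12 and 12021 and 4955 in siCtrl, of which siCtrl replicate 2 holds the largest number. In regions of lowest background, the smallest peak counted as stronger had 11 fragments in both siCDK12 libraries, and 10 and 11 in siCtrl replicates 2 and 3. Both GREB1 and TFF1, estrogen-induced genes used as a check of the ER label, had at least 1 peak in each library. The highest fold at GREB1 was 10.2 and 4.63 in siCDK12 against 39.97 and 32.9 in siCtrl. At TFF1 the highest fold was 5.30 and 9.43 in siCDK12 against 20.2 and 12.6 in siCtrl. Without siCtrl replicate 2, there were 1021 siCDK12-only and 895 siCtrl-only stronger sites, with 1 siCtrl library then set against 2 siCDK12 libraries. Counted by library, stronger sites with no peak in the other condition numbered 440 and 473 in siCDK12 replicates 3 and 4, and 1887 and 894 in siCtrl replicates 2 and 3.

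ER is a ligand-activated transcription factor that, with estradiol bound, sits mostly at distal enhancers together with pioneer factors such as FOXA1 and with coactivators. Its direct DNA target is the estrogen response element (ERE), a palindrome of GGTCA and TGACC with 3 free bases between them. ER can also be held on chromatin by other factors with no ERE of its own. CDK12 is a kinase that phosphorylates RNA polymerase II during elongation and sustains the expression of long genes, many of them DNA repair genes.

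Only 4 of the 907 sites held an ERE, searched on both strands within 100 bp of the summit with at most 1 mismatch in the 10 fixed bases. The sequences of 3 are given, to show how each departs from the receptor's motif, read from the GRCh38 reference in the direction of the match, with the element in capitals.
RAPGEF4-AS1 site, chr2:172715249-172715301, + strand: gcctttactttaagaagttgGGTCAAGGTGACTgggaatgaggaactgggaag
MYT1L site, chr2:1875206-1875258, + strand: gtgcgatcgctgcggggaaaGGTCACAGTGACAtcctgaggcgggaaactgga
SFXN5 site, chr2:73009788-73009840, + strand: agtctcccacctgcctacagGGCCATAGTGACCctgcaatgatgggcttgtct
Each element had exactly 1 mismatch. Counted from 1 at the 5′ end of the element, the reference base of the motif first, it was C13T in RAPGEF4-AS1, C13A in MYT1L and T3C in SFXN5. These elements lay 36, 26 and 22 bp from their summits. The fourth site, near ZNF217, is not shown. It had the highest -log10 q of the 4, at 3.43, and its window also matched the 7SL RNA described below. The 3 shown had 3.19, 3.13 and 3.04.

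The other sequences shown are the windows of 100 bp either side of the summit at 4 sites without an ERE. The LINC01951 and SEMA3D sites are given because they had a stronger peak in both siCDK12 libraries over a low background, and the other 2 because they are the strongest sites on chromosomes 20 and 9. They are read from the + strand of GRCh38, with no capitals.
LINC01951 intron, chr5:174946075-174946275, + strand: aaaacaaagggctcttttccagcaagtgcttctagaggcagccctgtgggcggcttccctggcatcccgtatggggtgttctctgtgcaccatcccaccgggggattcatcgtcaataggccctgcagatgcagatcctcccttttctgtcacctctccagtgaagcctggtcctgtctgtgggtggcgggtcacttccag
SEMA3D intron, chr7:85004574-85004774, + strand: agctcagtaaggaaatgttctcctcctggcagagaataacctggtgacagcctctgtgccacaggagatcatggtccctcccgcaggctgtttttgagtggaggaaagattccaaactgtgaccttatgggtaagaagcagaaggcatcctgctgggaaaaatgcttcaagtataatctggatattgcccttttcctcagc
Intergenic site nearest to RNU4ATAC7P, chr20:54938752-54938952, + strand: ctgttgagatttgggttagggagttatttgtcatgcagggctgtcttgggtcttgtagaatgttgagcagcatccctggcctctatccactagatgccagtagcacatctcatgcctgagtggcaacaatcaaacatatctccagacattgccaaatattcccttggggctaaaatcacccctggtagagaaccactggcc
ENSG00000267559 exon, chr9:81974009-81974209, + strand: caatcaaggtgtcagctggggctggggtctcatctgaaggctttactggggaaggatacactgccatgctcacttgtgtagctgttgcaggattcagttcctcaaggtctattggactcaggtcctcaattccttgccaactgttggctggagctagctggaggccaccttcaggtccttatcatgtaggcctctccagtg
The first lies in an intron of the long noncoding RNA gene LINC01951 and the second in an intron of SEMA3D, a secreted axon guidance factor. The 4 windows were taken from those with no match of at least 50 bases to the 7SL RNA, described next. Such a match was present at the other sites named below in ZNF217, INTS2 and NCOA3, which also had a stronger peak in both siCDK12 libraries, and at the strongest USP32 site and the GABPB1 site nearest to RNU6-94P. Among the sites nearest to list genes, it was present at least at TPBG, at chr20:47621734-47621961 in NCOA3 and in intron 6 of BRIP1.

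Many of the other windows read as repeated sequence. They were compared with the 7SL RNA, the RNA of the signal recognition particle from which Alu repeats derive, taken as RN7SL1 of the annotation. A match of at least 50 bases to the 7SL RNA was found in 186 of 907 siCDK12-only stronger windows (20.5%, exact binomial 95% interval 17.9% to 23.3%). It was found in 69 windows of equal length centred 1000 bp downstream of the same summits (7.61%, 5.97% to 9.53%). Among the 2512 siCtrl-only stronger sites the number was 348 (13.9%, 12.5% to 15.3%), and among all sites 3708 (14.6%, 14.2% to 15.1%). The share at siCDK12-only stronger sites was therefore above the windows beside them, the siCtrl-only stronger sites and all sites, with intervals that do not overlap. Among sites with a -log10 q from 3 to under 5, it was 20.2% (17.5% to 23.1%) for siCDK12-only and 15.6% (14.0% to 17.4%) for siCtrl-only. This measure was chosen after the windows had been read, so it is a description with no test. Sites with a siCtrl peak and a stronger siCDK12 peak had an even higher share, 75 of 308 (24.4%, 19.7% to 29.5%), so the match was not particular to sites without a siCtrl peak. The shares were alike in both siCDK12 libraries, 20.5% of 435 sites strongest in replicate 3 and 20.6% of 472 strongest in replicate 4. Of the 32 sites with a peak in both, 11 had a match (34.4%, 18.6% to 53.2%). Among the 377 siCtrl-only stronger sites found in both siCtrl libraries, 21 had a match (5.57%, 3.48% to 8.39%). However, 6 of the 32 reached a -log10 q of 5, against 312 of the 377. Over a raised background, described below, the share was 27.1% against 18.6% elsewhere for siCDK12-only sites. For siCtrl-only sites it was 19.1% against 12.4%. Of the 32, 21 had such a background. The sets were matched on neither strength nor background, so nothing is read from their difference.

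**Figure D1:**
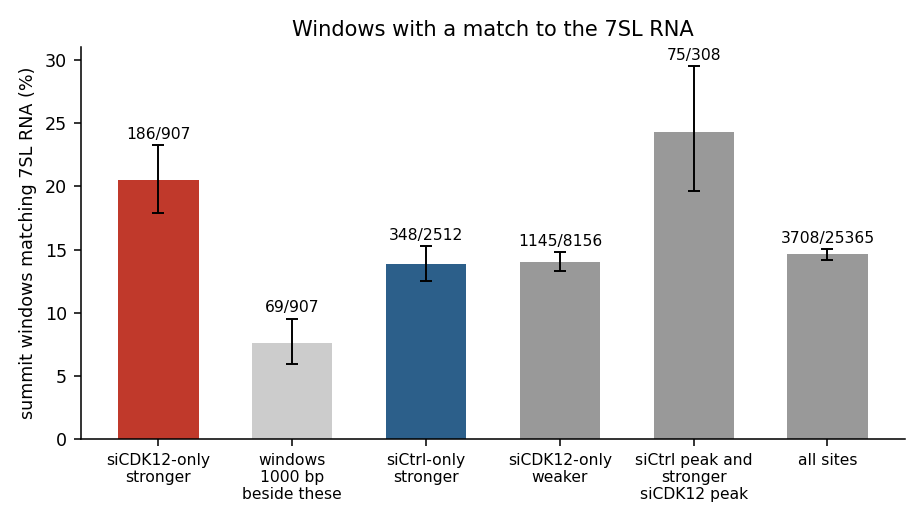
Share of summit windows with a match of at least 50 bases to the 7SL RNA, in % of the windows of each class. Bars give the share, error bars the exact binomial 95% interval, and the labels the windows with a match over all windows. The siCDK12-only stronger bar stands at 20.5% and the windows beside the same sites at 7.61%.

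The same windows were scored by how often their 15-base words occur in the genome, since reads of 50 bases place less surely in repeated sequence. The median word occurred at least 1000 times in 119 siCDK12-only stronger windows (13.1%, 11% to 15.5%) and in 211 siCtrl-only stronger windows (8.40%, 7.34% to 9.55%). In the windows beside the siCDK12-only sites the number was 75 (8.27%, 6.56% to 10.3%). The middle site of each class was not repeated in this sense, with a median of 13 occurrences at siCDK12-only and 11 at siCtrl-only stronger sites. Whether read placement has a part in these peaks was not tested.

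Most siCDK12-only stronger sites were weak. Their highest -log10 q ran from 3.00 to 16.2 with a median of 3.44, and 704 (77.6%) were under 4. The fold over local background ran from 1.92 to 7.79 with a median of 5.37, and the median pileup at the summit was 13 fragments. At 5 or more, 65 remained (7.17%). Of the siCtrl-only stronger sites, 726 (28.9%) reached 5 and the highest was 116. As a scale, the strongest peak of any kind had a -log10 q of 102 and 40.5 in siCDK12 replicates 3 and 4 and of 544 and 422 in siCtrl replicates 2 and 3.

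**Figure D2:**
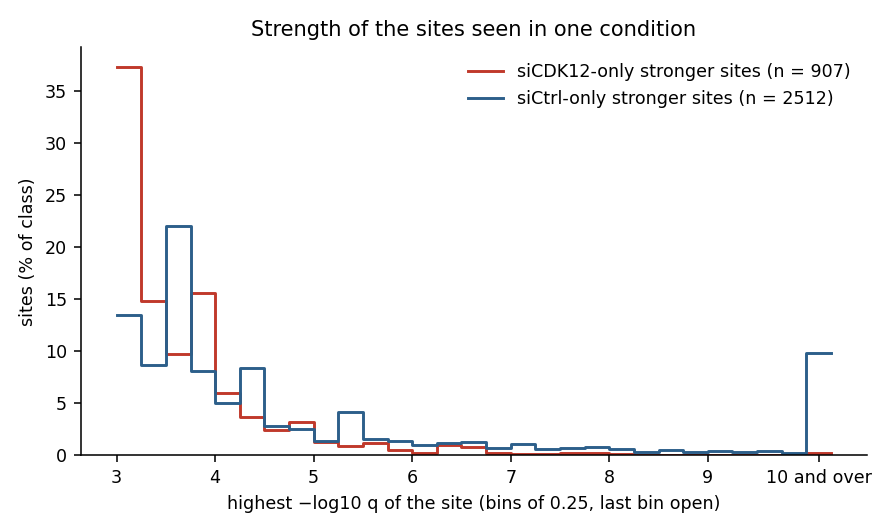
Distribution of the highest -log10 q per site, in % of the sites of each class, for siCDK12-only (n = 907, red) and siCtrl-only (n = 2512, blue) stronger sites. Bins are 0.25 wide and the last bin holds all sites of 10 and over. The siCDK12-only line is highest in the first bin, and its sites of 5 and over are 7.17% against 28.9% for siCtrl-only.

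The siCDK12 libraries seldom shared a site. Of the 907, 440 had a peak of -log10 q of 3 or more in replicate 3 and 473 in replicate 4. A peak with a q-value under 0.05 in both libraries was present at 32 (3.53%, 2.43% to 4.94%), and in the lists as deposited, whatever the q-value, at 38. Of all 25365 sites, 0.343% had peaks in siCDK12 replicates 3 and 4 and none in siCtrl. Among siCtrl-only stronger sites, 377 (15%, 13.6% to 16.5%) had a peak in both siCtrl libraries. The rule used peak presence, so nothing is read from this difference. In the siCtrl lists as deposited, 14 of the 907 had a weak peak with a q-value above 0.05, 8 in replicate 2 and 7 in replicate 3, with 1 of them in both.

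The site with the highest -log10 q lay in intron 1 of PPM1E, a protein phosphatase gene, at chr17:58816869-58817153. Its -log10 q was 16.2 in siCDK12 replicate 3 and 3.00 in replicate 4, just below the limit, and no siCtrl peak was listed. The pileup was 41 fragments over a background of 5.48 in replicate 3, and 31 over 9.67 in replicate 4. The pseudogene RNU6-518P has the nearest annotated start, 18892 bp away. The site thus had a peak with a q-value under 0.05 in both siCDK12 libraries, with a far higher -log10 q in replicate 3.

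A site in intron 10 of USP32, a ubiquitin-specific protease gene, at chr17:60254444-60254674, followed with a -log10 q of 11.7 in siCDK12 replicate 4 and no peak in replicate 3. At chr20:54938705-54938949, in an intergenic stretch whose nearest start is the pseudogene RNU4ATAC7P, it was 8.02 in replicate 3 and no peak was listed in replicate 4. The next site was in intron 5 of ZNF217, a transcription factor gene often amplified in breast cancer, at chr20:53571453-53571657, and was strong in both siCDK12 libraries, at 7.36 and 7.86. Its fold was low, at 2.39 and 2.63, because 89 and 78 fragments stood over a background of 36.7 and 29.

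The remaining 8 of the 12 strongest sites had a -log10 q from 6.67 to 7.83. One was in an exon of the long noncoding RNA ENSG00000267559 on chromosome 9, with 16 fragments over a background of 1.18 in siCDK12 replicate 4 alone. Another overlapped RN7SKP144, a 7SK RNA pseudogene upstream of the neural adhesion gene CNTN4 on chromosome 3, with 19 fragments over 1.93 in replicate 3 alone. Sites in introns of SUGCT, an enzyme gene of glutarate metabolism, and of CFAP418-AS1 had the same 19 fragments over 2.03 and 1.93. An intergenic site on chromosome 21 nearest to EIF3FP1 had 18 over 1.93. A site in intron 1 of GABPB1, a subunit of an ETS-family complex, nearest to RNU6-94P, had 35 over 7.73 in replicate 4. The last pair lay in intron 4 of ADAMTS9-AS2, antisense to the metalloprotease gene ADAMTS9, with 49 over 14.1 and 48 over 14 in replicate 4. Only the second of that pair was also listed in replicate 3, with a q-value above 0.05. Thus 9 of the 12 strongest had a listed peak in 1 siCDK12 library alone.

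A peak of -log10 q of 3 or more in both siCDK12 libraries was found at 6 of the 907 sites (0.662%, 0.243% to 1.43%). Ordered by the lower of their values, these were the ZNF217 site above and a site in intron 8 of INTS2, a subunit gene of the Integrator complex that processes small nuclear RNA, at chr17:61905345-61905634 with 4.32 and 5.37 in replicates 3 and 4. The third was in intron 2 of NCOA3, the gene of the ER coactivator SRC-3, at chr20:47615891-47616163 with 3.67 and 4.07. The fourth was the LINC01951 site, at chr5:174946005-174946282 with 3.28 and 5.36, and the fifth the SEMA3D site, at chr7:85004506-85004756 with 3.56 and 3.11. The sixth was in the noncoding gene ENSG00000232895 at chr1:114235968-114236356 with 3.09 and 6.12. None of the 6 overlapped a siCtrl peak of any q-value, and none held an ERE. The background at the stronger peak was 1.29 times the lowest common level of the library at LINC01951, 2.36 at SEMA3D, and from 7.83 to 24.6 at the other 4.

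The sites spanned a wide range of local background. Background here is the expected number of fragments that the peak caller used at the summit, solved from the deposited fold and p-value, and its lowest common level was 1.23 and 1.18 fragments in siCDK12 replicates 3 and 4. At 207 sites (22.8%) the background was over 3 times that level. There the median pileup was 41 fragments over a median background of 13.6, and the median fold was 2.91. At the other 700 sites the median pileup was 12 over 1.31, with a median fold of 5.38. Of the 32 sites found in both siCDK12 libraries, 21 had a background over 3 times that level and 11 did not. Among the siCtrl-only stronger sites, 544 of 2512 (21.7%) had such a background.

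**Figure D3:**
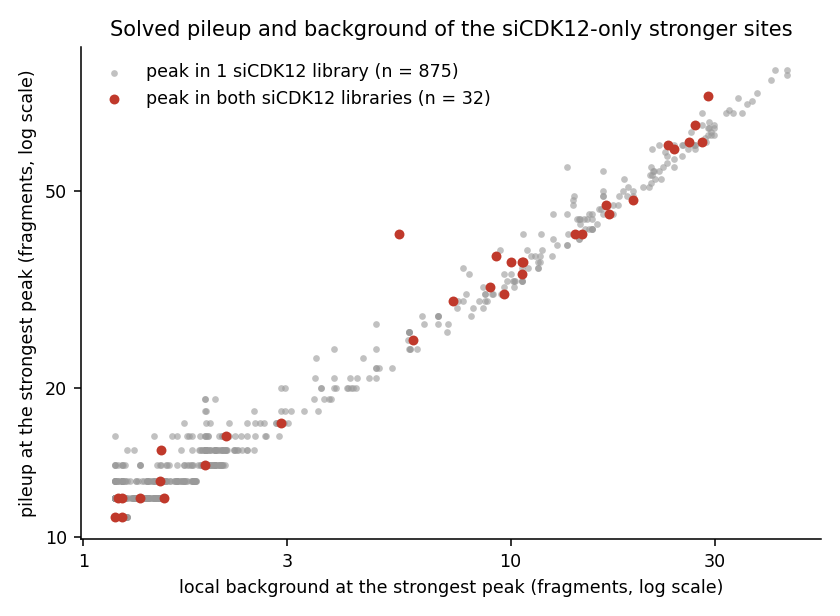
Pileup against local background at the strongest peak of each siCDK12-only stronger site, both in fragments on log scales. Each point is 1 site, grey for a peak in 1 siCDK12 library (n = 875) and red for a peak in both (n = 32). Most points crowd at the lower left, with pileups of 11 to 23 fragments over a background under 4, and the red points spread along the whole range.

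The 7 bins with the most sites had a raised background. Counted in bins of 5 Mb, chr20:50000001-55000000 held 44 of the 907 sites and chr20:45000001-50000000 held 31. On chromosome 17, the bin from 60 to 65 Mb held 36 and the bin from 55 to 60 Mb held 16. On chromosome 3, the bin from 60 to 65 Mb, around ADAMTS9, held 31. The bin from 105 to 110 Mb of chromosome 1 held 19, and that from 50 to 55 Mb of chromosome 15 held 18. In the order named, these 7 bins held 135, 55, 88, 29, 64, 31 and 43 siCtrl-only stronger sites. Of all ER sites they held 534, 301, 447, 164, 362, 197 and 286. The median background of all ER sites in these 7 bins was 3.78 to 17.2 times the lowest common level. Copy number was not tested here.

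The 12 bins with a median background over 3 times the lowest common level held 220 of the 907 sites (24.3%) and 496 of the 2512 siCtrl-only stronger sites (19.7%). They held 10.4% of all sites. By chromosome, 20 carried 92 members (10.1%) and 10.2% of the siCtrl-only stronger sites, while it carried 5.51% of all sites. Chromosome 15 carried 40 (4.41%, against 2.91% of the siCtrl-only stronger sites), and chromosome 11 carried 5 (0.551%, against 2.27%). Over all 578 bins with any site, these 12 included, 310 held at least 1 member and 145 held exactly 1.

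**Figure D4:**
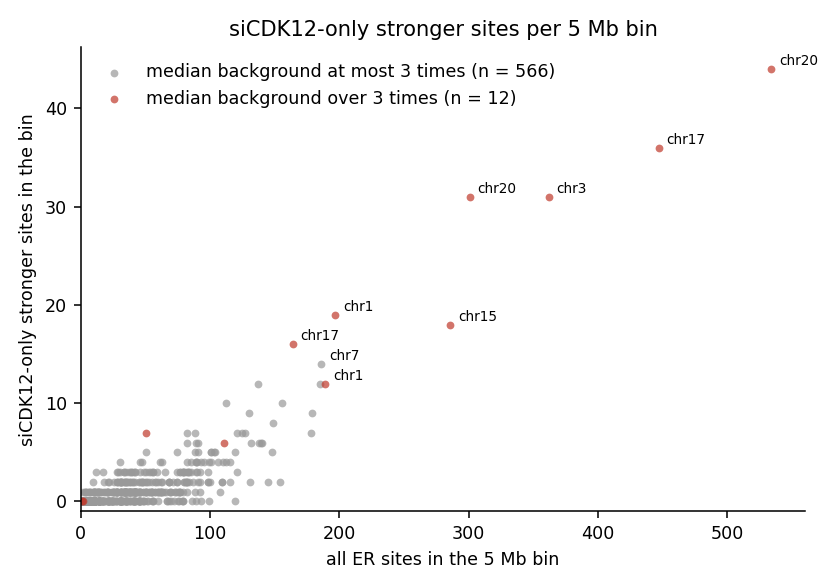
Number of siCDK12-only stronger sites against the number of all ER sites, for each 5 Mb bin with a site (n = 578). Red points are the 12 bins whose sites have a median background over 3 times the lowest common level of their library, and the 9 bins with most members are labelled with their chromosome. The highest point is a bin of chromosome 20 with 44 of 534 sites.

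A siCtrl summit lay within 1000 bp of 47 sites (5.18%) and within 10000 bp of 304 (33.5%). At the 6 sites with a stronger peak in both siCDK12 libraries, the nearest siCtrl summit was 801 bp away at ZNF217, 307 bp at INTS2, 2001 bp at NCOA3, 59088 bp at LINC01951, 1075 bp at SEMA3D and 3197 bp at ENSG00000232895. The distance was not computed for other classes of site.

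EREs were far rarer at siCDK12-only than at siCtrl-only stronger sites. An element was found at 4 of 907 (0.441%, 0.120% to 1.13%) and at 214 of 2512 (8.52%, 7.46% to 9.68%), which gave an odds ratio of 0.0476 (p = 1.40e-24 by a two-sided Fisher's exact test over sites). Sites are not replicates of a condition, so this test covers these libraries only. By library, the shares were 0.455% and 0.423% at the stronger one-condition sites of siCDK12 replicates 3 and 4, and 10.1% and 13.5% in siCtrl replicates 2 and 3. The 2 conditions did not overlap, and the exact permutation test over the 4 libraries gave p = 0.333, the smallest value that 2 against 2 allows.

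In ERE share, no difference was detectable between the siCDK12-only stronger sites and nearby sequence. Windows centred 1000 bp downstream of the same summits held an element at 2 of 907 sites (0.221%, 0.0267% to 0.794%; exact McNemar test, p = 0.688). An element was at the site alone in 4 cases and in the window alone in 2, too few to detect a modest difference. With windows 1000 bp upstream these counts were 4 and 4, and 2000 bp downstream they were 4 and 0 (exact McNemar test, p = 0.125). Of the 308 sites with a siCtrl peak and a stronger siCDK12 peak, 39 held an element (12.7%, 9.16% to 16.9%). The rule leaves these 308 sites out of both one-condition classes, so the ERE comparison between those classes is not independent of the rule. The window of each of the 308 sites was centred on its strongest peak, which could be a siCtrl peak. Among all sites the share was 1.91%.

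The siCtrl-only sites reached higher q-values, so the shares were also set out by strength. With a -log10 q from 3 to under 3.5, an element was found at 4 of 474 siCDK12-only and 14 of 557 siCtrl-only sites (0.844% and 2.51%), with overlapping intervals. From 3.5 to under 4 it was 0 of 230 against 22 of 757, and from 4 to under 5 it was 0 of 138 against 22 of 472. At 5 and over it was 0 of 65, with an upper limit of 5.52%, against 156 of 726 (21.5%, 18.6% to 24.7%). Restricted to sites from 3 to under 5, the odds ratio was 0.142 (4 of 842 against 58 of 1786, Fisher's exact test, p = 1.45e-06).

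**Figure D5:**
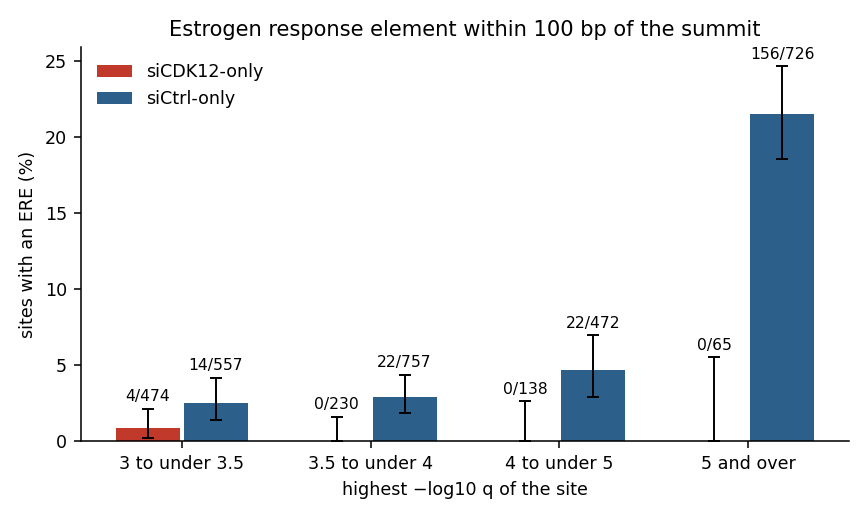
Share of sites with an ERE within 100 bp of the summit, in %, by the highest -log10 q of the site. Bars are siCDK12-only (red) and siCtrl-only (blue) stronger sites, error bars the exact binomial 95% interval, and the labels the sites with an element over all sites. The siCtrl-only share is 21.5% at a -log10 q of 5 and over, where no siCDK12-only site of 65 holds an element.

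Of 10 other motifs, 1 differed in share between siCDK12-only and siCtrl-only stronger sites after Benjamini-Hochberg adjustment. The GC box GGGCGG, a motif of SP-family factors, was found at 31 of 907 sites (3.42%) and 149 of 2512 (5.93%), which gave an odds ratio of 0.561 (adjusted p = 0.0311 by Fisher's exact test). By the same exact test it did not pass when the window was 50 bp either side (adjusted p = 0.0526), among sites from 3 to under 5 (0.949), or at a low background (0.131).

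The TEAD motif GGAATG was found at 119 sites (13.1%) against 10.9% (exact test, adjusted p = 0.446). The AP-1 motif TGANTCA was found at 56 (6.17%) against 7.64% (exact test, adjusted p = 0.520), and the forkhead motif TGTTTNC at 99 (10.9%) against 12.3% (adjusted p = 0.565). The GATA motif AGATAA stood at 60 (6.62%) against 7.84% (exact test, adjusted p = 0.565), and the NFY motif CCAAT at 203 (22.4%) against 21.8% (adjusted p = 0.885). None of these 5 passed the test. The ETS motif CCGGAA was at 15 sites, the bHLH motif CACGTG at 31, a run of at least 6 CA or TG repeats at 3, and the CTCF core at 0, and none of these passed either. Both strands were searched, and matches of different motifs could overlap. Over all 25365 sites the GC box was present at 4.56%, TEAD at 10.8%, AP-1 at 6.49%, forkhead at 12.1%, GATA at 7.27% and NFY at 23.5%, and ETS and bHLH at 1.72% and 2.86%. At 452 sites (49.8%) at least 1 of the 10 motifs was present without an ERE, and at 1220 siCtrl-only stronger sites (48.6%).

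The sites lay mostly outside promoters and exons. The summit was in an intron of a canonical transcript at 502 sites (55.3%), between genes at 357 (39.4%) and in an exon at 48 (5.29%), and for siCtrl-only stronger sites the shares were 53.7%, 40.6% and 5.77%. The median distance to the nearest annotated start was 18379 bp, against 14073 bp. A start lay within 1000 bp at 52 sites (5.73%) and at 193 siCtrl-only stronger sites (7.68%), and the odds ratio of 0.731 missed the threshold (p = 0.0511 by Fisher's exact test). Within 500 bp the odds ratio was 0.588 (Fisher's exact test, p = 0.0162), and for protein-coding genes alone it was 0.882 (p = 0.615). Among sites with a -log10 q from 3 to under 5 it was 0.892 (Fisher's exact test, p = 0.598).

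Across 6 lists with 219 genes, 13 sites (1.43%) were nearest to 6 genes, against 57 siCtrl-only stronger sites (2.27%) nearest to 25 genes and 265 of all sites (1.04%). The estrogen response list of 60 genes had 1 site (0.110%, against 0.146% of all sites), and 14 siCtrl-only stronger sites at 13 genes (0.557%). The luminal transcription factor and receptor partner list of 28 genes had 6 sites at 3 genes (0.662%, against 0.756% of siCtrl-only stronger sites and 0.280% of all sites). The homologous recombination and DNA damage list of 40 genes had 6 sites at 2 genes (0.662%, against 0.796% and 0.465%). The p53 and apoptosis, AP-1 and immediate early, and transcription kinase and cyclin lists had none, and they hold 0.0473%, 0.0355% and 0.0710% of all sites.

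The single estrogen response site was intergenic, 14251 bp from TPBG, the gene of a surface glycoprotein, at chr6:82348837-82349026. It had 12 fragments over a background of 1.18 in siCDK12 replicate 4 and no peak in replicate 3, and its window matched the 7SL RNA. In intron 4 of ESR1, the gene of ER itself, a site at chr6:151944925-151945161 had 14 fragments over 1.93 and a -log10 q of 3.44 in replicate 4, again with none in replicate 3. In intron 20 of NCOA1, a coactivator gene, a site at chr2:24753707-24753881 had 11 over 1.23 and 3.10 in replicate 3 alone. Each of these 3 was thus a weak peak of a single library.

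At NCOA3, 4 sites were stronger peaks in siCDK12 alone. The receptor partner list it belongs to held 19 siCtrl-only stronger sites at 5 genes and 71 sites in all. The site at chr20:47621734-47621961 in intron 2 had a -log10 q of 5.38 in replicate 3, that at chr20:47572601-47572814 in intron 1 had 3.68 in replicate 3, and that at chr20:47531104-47531281 in intron 1 had 49 fragments over 18.7 in replicate 4. These 3 had no peak in the other siCDK12 library, and the fourth is the site in both libraries described above. The background at the 4 sites was 14.2 to 19.6 times the lowest common level. In the order named, the nearest siCtrl summit lay 2339, 518, 475 and 2001 bp away.

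At BRIP1, a helicase gene of DNA repair that partners BRCA1, there were 5 sites. The DNA damage list it belongs to held 20 siCtrl-only stronger sites at 3 genes and 118 sites in all. The strongest, in intron 14 at chr17:61753687-61753913, had 72 fragments over a background of 28.0 and a -log10 q of 6.36 in replicate 3 alone. The site in intron 4 at chr17:61850506-61850830 had a peak in both siCDK12 libraries, at 1.76 and 5.29, as did an intergenic site at chr17:61668557-61668830, at 2.42 and 3.28. The other 2, in introns 6 and 19, had 84 and 62 fragments over 40.6 and 27.0 in replicate 3 alone. The background at all 5 was at least 21.98 times the lowest common level, and NCOA3 and BRIP1 lie in the bins of high background on chromosomes 20 and 17. In the order named, the nearest siCtrl summit lay 671, 1386, 4041, 2516 and 1925 bp from the BRIP1 sites.

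The members that held an ERE also differed in background. The site near ZNF217, at chr20:53617594-53617769, had 75 fragments over 35.7 in siCDK12 replicate 3 and a peak with a q-value above 0.05 in replicate 4, and a siCtrl summit lay 291 bp away. The RAPGEF4-AS1 and MYT1L sites had 11 fragments over 1.18 and 1.22 in replicate 4 alone. The SFXN5 site had 11 over 1.27 in replicate 3 alone. RAPGEF4 encodes a cAMP-activated exchange factor, MYT1L a neuronal transcription factor and SFXN5 a mitochondrial carrier.

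Just inside the limit, the weakest siCDK12 replicate 3 peak was near BCAS1 on chromosome 20, with a -log10 q of 3.04 and 53 fragments over 22.4. In replicate 4 it was near FAM178B on chromosome 2, with 3.00 and 16 over 2.86. Among siCDK12-only sites that were not kept, the strongest peaks were near ZNF517 in replicate 3, with 2.99 and 11 over 1.28, and near CFAP418-AS1 in replicate 4, with 2.99 and 13 over 1.85. The values on either side of the limit thus differed by less than 0.05 in -log10 q.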

How the data were processed

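ER ChIP-seq peak lists of 4 LY2 libraries were analysed. The authors filtered 50 bp single-end reads, mapped them with BWA-MEM to the GRCh38 build, called peaks with MACS2 in each library separately and left out 1 divergent replicate per condition. Each deposited peak has a fold, the ratio of pileup over local background at the summit, a -log10 p-value, a -log10 q-value and a score, which is derived from the significance and was not used further. Values are not normalized between libraries. Although the methods give a false discovery rate of 0.05, 20.4% to 28.0% of the deposited peaks have a higher q-value. These were set aside except where stated.

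The members and the gene lists were chosen with earlier results of these data known. Pileup and background were solved from the Poisson p-value and the fold, read as the pileup over the background with 1 added to each, which failed for 1 peak in each siCtrl library. Read totals were not derived. The lowest common background is the lowest value shared by at least 50 peaks of a library. The reference sequence is GRCh38, whose chromosomes hold every peak end, and genes are those of GENCODE release 44. A site's summit is that of its peak with the highest -log10 q. Intron and exon numbers are those of the Ensembl canonical transcript. Matches to the 7SL RNA were found with blastn 2.17.0 (E-value of at most 1e-05, at least 50 bases), and 15-base words were counted on both strands of chromosomes 1 to 22, X and Y.

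Genes were named by rule as nearest to the 12 sites with the highest -log10 q, the sites stronger in both siCDK12 libraries, the sites with an ERE, the sites nearest to list genes, and those at the limit. Host genes are given beside them, and 1 list gene and some sequences are not reported here. Intervals of shares are exact Clopper-Pearson 95% intervals and cover nothing but counting error. Tests over sites were two-sided Fisher's exact tests, an exact McNemar test and Benjamini-Hochberg adjustment over 10 motifs. DiffBind, the authors' test, needs read counts and was not repeated. Alternatives covered the q-value limit, the overlap, the fold, all sequences, motif windows and mismatches, start distances, the background and each library left out. The joining of peaks into sites, the motif search, the solving of pileups and the word count were tested on simulated data. Python 3.11.15, SciPy 1.17.1, statsmodels 0.14.6, pandas 2.3.3, numpy 2.4.6, pysam 0.24.0 and matplotlib 3.10.9 were used.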

Additional observations from a re-analysis of the deposited data

How the results depend on the processing

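No paired analysis was possible because replicate 3 is the only number that siCtrl and siCDK12 share. With the limit on -log10 q at 2 the counts of siCDK12-only sites, siCtrl-only sites and siCDK12-only sites in both siCDK12 libraries were 3273, 6479 and 63, and with the limit at 5 they were 65, 726 and 6, since the limit defines them. The count in both siCDK12 libraries (32) was 50 when only siCtrl peaks of 3 or more in -log10 q excluded a site, 12 with a fold of at least 4, and 11 with a background of at most 3 times the lowest common level, an alternative chosen after seeing the data. With 1 library left out at a time there were 440 to 1021 siCDK12-only, 895 to 2679 siCtrl-only and, without a siCtrl library, 48 to 61 siCDK12-only sites in both siCDK12 libraries. The low extremes for siCDK12-only were 473 without siCDK12 replicate 3 and 440 without replicate 4, and for siCtrl-only 895 without siCtrl replicate 2.

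The odds ratio of the ERE kept its direction and side of the threshold under 10 alternatives, from 0 with no mismatch allowed (0 of 907 against 42 of 2512) to 0.283 with 2 mismatches. The ratio of the mean shares per library, added after seeing the data, was 0.0372 with an exact permutation p of 0.333, the smallest it can give. The number of other motifs past the threshold (1) was 0 with windows of 50 bp, 0 from 3 to under 5 and 0 at low background, with Fisher's exact test and adjustment over 10 motifs. With windows of 50 bp the odds ratios of GATA (1.05), NFY (0.954) and bHLH (0.994) changed direction, none past the threshold. The promoter odds ratio was 0.588 within 500 bp of a start and passed. By Fisher's exact test it did not pass with a wider distance to the start (0.872, p = 0.141), for protein-coding genes alone (0.882, p = 0.615) or among sites from 3 to under 5 (0.892, p = 0.598), and it ran from 0.652 to 0.756 with each library left out, passing without siCtrl replicate 3 (0.681). With any list gene within 50 kb, 22 sites were counted in place of 13. At the lowest common background, the fewest fragments in a peak with a -log10 q of 3 or more were 11 in both siCDK12 libraries, and 10 and 11 in the siCtrl libraries. The part of read depth was not tested.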
